A study of Homo sapiens with 24 samples.

Results

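The results below come from 4 libraries of SCaBER, a human bladder cancer cell line of the basal/squamous type, out of 24 libraries in the series. In 2 libraries the cells had received siFOXA1 number 1 together with siZBED2 number 2 (siFOXA1+siZBED2-2, here the double knock-down), and in the other 2 they had received siFOXA1 number 1 alone. All 4 libraries therefore carried the FOXA1 siRNA, and what differed was the second siRNA against ZBED2. The 8 other SCaBER libraries entered the fit to estimate the spread between replicates, and their expression values are not reported. The assay was 3′ RNA-seq, in which oligo-dT priming places reads near the end of polyadenylated transcripts, so that a count follows the number of transcripts and not their length. The question addressed by the comparison is what ZBED2 contributes to the transcriptome, interferon signalling in particular, when FOXA1 is knocked down. As a model the comparison is limited to 1 cell line, transient transfection and 1 ZBED2 siRNA. An effect of losing ZBED2, an effect of this siRNA on other transcripts and an effect of adding a further siRNA to the cells cannot be told apart in it.

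Interferon-induced genes were lower and genes of DNA replication and mitosis were higher when siZBED2-2 was added to siFOXA1. ISG15, a ubiquitin-like protein conjugated to other proteins after interferon, fell 2.5-fold, and STAT2, which carries the interferon signal to the nucleus, fell 2.22-fold. MYBL2, a transcription factor of the late cell cycle, and MKI67, which encodes the proliferation marker Ki-67, rose 2.4-fold and 2.35-fold. ZBED2 itself was 1.81-fold lower in the fit, a difference that did not pass the test.

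ZBED2 is a zinc finger protein with a BED-type DNA-binding domain that is known in keratinocytes and pancreatic cancer cells, in the latter as a factor that competes with interferon regulatory factors for DNA. Type I and III interferons act through receptors and JAK kinases on a complex that holds STAT2 and IRF9 and binds the interferon-stimulated response element in the promoters of effector genes such as ISG15. Genes of mitosis share another promoter design, with CCAAT boxes bound by NF-Y and a cell cycle homology region (CHR) bound by the DREAM and MuvB complexes, and many genes of DNA replication carry sites for E2F factors. FOXA1 is a pioneer factor of luminal urothelium.

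To show these designs, the 250 bases before the annotated start of 2 interferon-induced and 2 mitotic genes among those with the strongest calls are printed 5′ to 3′ (RefSeq, GRCh38.p14). Capitals mark matches on either strand to GAAANNGAAA, a core of the interferon-stimulated response element, in the first pair, and to CCAAT and TTTGAA, the letters of the CCAAT box and the CHR, in the second pair. They were picked among the named genes because they hold these letters.
ISG15, chr1:1013247-1013496, plus strand: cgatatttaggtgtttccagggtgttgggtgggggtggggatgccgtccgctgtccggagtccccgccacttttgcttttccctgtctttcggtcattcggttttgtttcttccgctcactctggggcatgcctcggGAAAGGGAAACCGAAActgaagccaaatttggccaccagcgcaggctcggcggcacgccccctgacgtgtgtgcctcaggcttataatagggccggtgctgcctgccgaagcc
GBP1, chr1:89065209-89065458, minus strand: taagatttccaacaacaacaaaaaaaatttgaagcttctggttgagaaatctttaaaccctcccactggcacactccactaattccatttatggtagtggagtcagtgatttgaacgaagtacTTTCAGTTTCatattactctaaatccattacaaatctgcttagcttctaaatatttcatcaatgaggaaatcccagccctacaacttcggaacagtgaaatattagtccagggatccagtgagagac
PLK1, chr16:23678639-23678888, plus strand: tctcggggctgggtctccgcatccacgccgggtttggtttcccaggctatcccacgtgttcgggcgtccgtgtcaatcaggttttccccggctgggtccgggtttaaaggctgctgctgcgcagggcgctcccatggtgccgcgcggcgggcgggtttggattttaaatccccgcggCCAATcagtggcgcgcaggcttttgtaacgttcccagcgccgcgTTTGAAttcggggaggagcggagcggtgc
CDC20, chr1:43358731-43358980, plus strand: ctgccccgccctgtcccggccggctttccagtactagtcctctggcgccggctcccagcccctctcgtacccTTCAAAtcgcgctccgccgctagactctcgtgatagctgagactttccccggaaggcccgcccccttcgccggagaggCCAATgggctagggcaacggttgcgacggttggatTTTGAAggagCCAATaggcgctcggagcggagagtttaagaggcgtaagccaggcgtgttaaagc
ISG15 held 2 overlapping matches and GBP1 held 1 on the opposite strand. PLK1 held 1 CCAAT and 1 TTTGAA, and CDC20 held 2 of each.

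The siRNA targets were examined first. ZBED2 (chr3:111592900-111595346) had 100 and 84 counts in the siFOXA1 libraries and 49 and 57 counts in the double knock-down libraries, which is 20.4 and 19.0 against 9.86 and 11.9 CPM (counts scaled to an effective library size that is equal for all libraries). Both double knock-down libraries thus lay below both siFOXA1 libraries. The log2 difference of -0.85 (SE 0.44) had an adjusted p of 0.367, so at this depth the lowering of ZBED2 was not established by the fit across genes. FOXA1 (chr14:37589552-37595249) had 4 and 6 counts against 3 and 2 counts, the second group being at or under 3 counts in each library. FOXA1 was targeted in all 4 libraries, so its level does not check their labels. Library totals were 5050331 and 4519668 counts for siFOXA1 and 4987721 and 4736070 counts for the double knock-down, and 3 counts corresponded to 0.604 to 0.679 CPM. All 7 basal/squamous markers examined were detected, with a summed level of 5070 and 4760 CPM in siFOXA1 and 4720 and 4420 CPM in the double knock-down. Of 6 luminal markers, UPK1A, UPK3A and KRT20 were at 0 in all 4 libraries, while PPARG had 70 to 154 counts, GATA3 38 to 58 and UPK2 10 to 18. Of 16 markers of fibroblasts, blood, endothelium and muscle, 9 were at 0 and 12 did not exceed 3 counts in any library. The others were LUM with 74 to 139 counts, COL1A1 with 40 to 69, CD14 with 1 to 14 and CDH5 with 2 to 11.

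**Figure D1:**
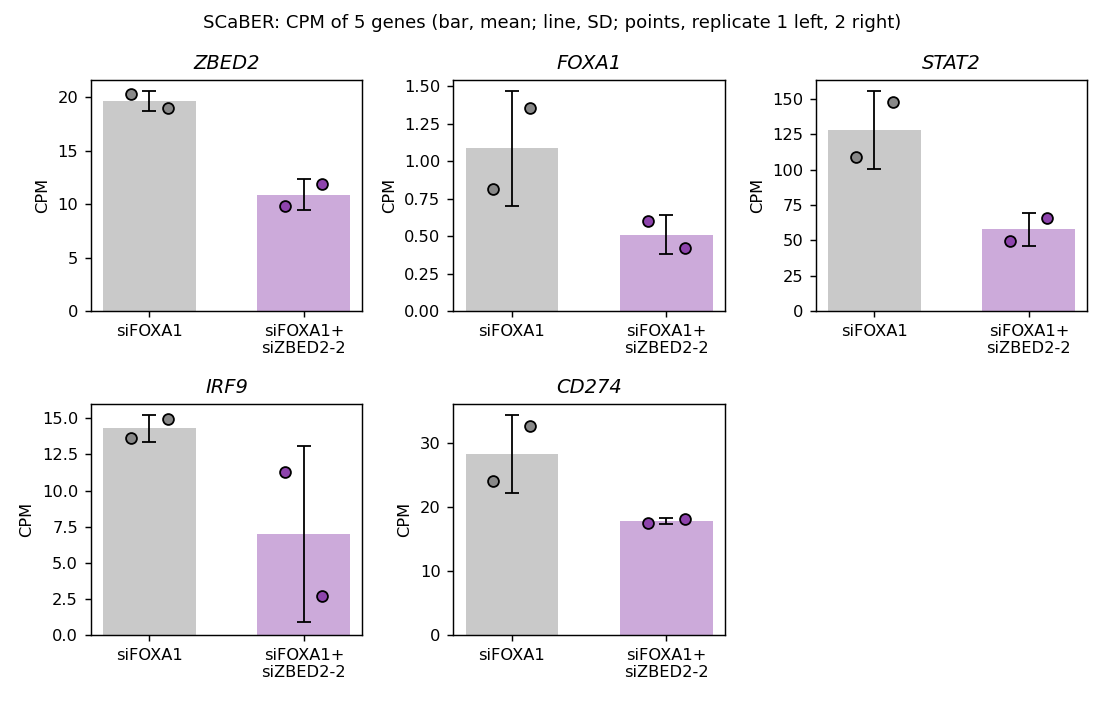
CPM (linear axes from 0) of ZBED2, FOXA1, STAT2, IRF9 and CD274 in the siFOXA1 libraries (grey) and the siFOXA1+siZBED2-2 libraries (purple), with bars for means, lines for SD (n = 2) and points for libraries. ZBED2 lay at 20.4 and 19.0 CPM against 9.86 and 11.9 CPM, and 1 double knock-down library stands apart for IRF9 at 2.72 CPM.

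Across the transcriptome, 480 of 13129 genes tested (3.66%) passed an adjusted p under 0.05 (called, below), of which 295 (2.25%) were higher and 185 (1.41%) lower in the double knock-down. The difference was at least 2-fold for 88 of the genes that rose and 70 of those that fell, and the median log2 difference over all genes tested was 0.00. Both double knock-down libraries lay above both siFOXA1 libraries for 21.9% of all genes tested and below them for 21.7%, and the groups lay apart in this way for 479 of the 480 called genes, the exception being the interferon-induced gene IFI27. Of the calls 61.5% were higher, against 70.2% when libraries were scaled by their totals alone, 83.8% in limma on deposited TPM values and 48.3% when the 4 libraries were fitted alone. The number of calls was sensitive to single libraries, being 219 without siFOXA1 replicate 2 (124 higher, 95 lower) and 303 without double knock-down replicate 1 (185 higher, 118 lower), and without double knock-down replicate 2 the genes called higher numbered 178. With the replicate number as a block 677 genes were called, including all 480, and the genes called lower rose in number from 185 to 283.

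**Figure D2:**
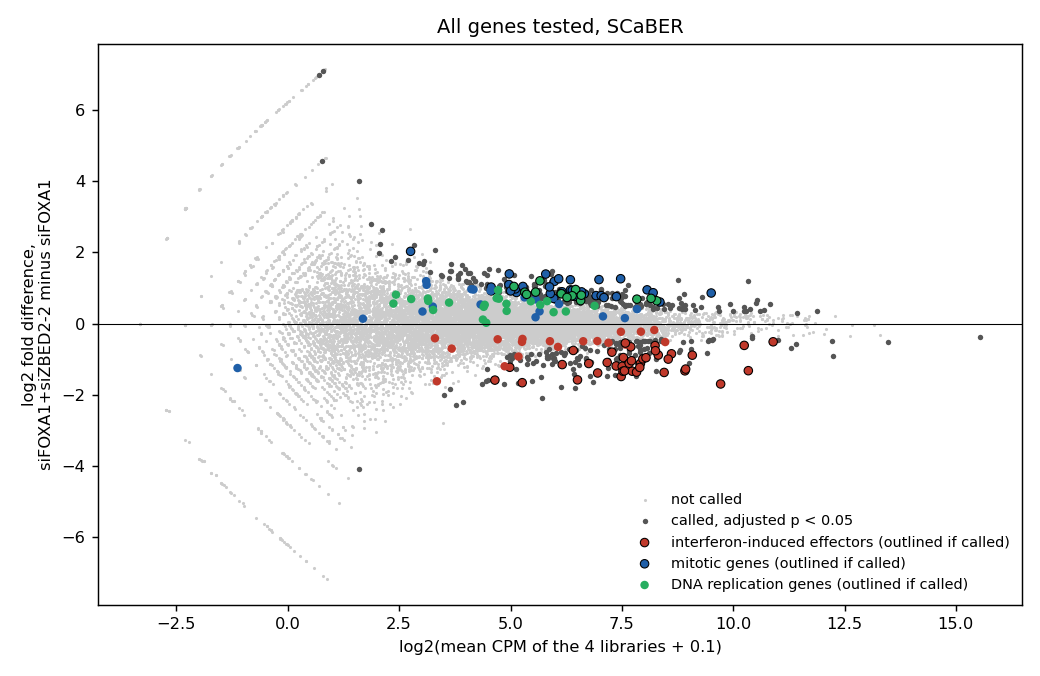
Log2 fold difference of siFOXA1+siZBED2-2 minus siFOXA1 (vertical axis) against log2 mean CPM of the 4 libraries (horizontal axis) for the 13129 genes tested, with called genes in dark grey and members of 3 gene lists in colour. Interferon-induced effectors (red) lie below 0 and nearly all mitotic (blue) and all DNA replication genes (green) above it.

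The genes that carry the interferon signal were considered before its targets. STAT2 (chr12:56341597-56360107) was at 109 and 148 CPM against 49.7 and 66.1 CPM, with a log2 difference of -1.15 (SE 0.20, adjusted p = 0.000371). The groups did not overlap, and the call was kept whichever of the 4 libraries was left out, but it was not made in limma on TPM (adjusted p = 0.0506). IRF9 (chr14:24161265-24166565), its DNA-binding partner, had 67 and 66 counts against 56 and 13 counts, and its log2 difference of -1.02 (SE 0.57, adjusted p = 0.417) rested mostly on the replicate 2 library, being -0.33 without it. Of 22 tested members of the list of interferon receptors, JAK, STAT and IRF factors 2 fell (9.09%, against 1.41% of all genes), STAT2 among them. None rose, and the list median was -0.22. The receptor chains IFNAR1 and IFNAR2, taken up after their values were seen, had log2 differences of 0.08 and 0.14 with overlapping groups.

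Interferon-induced effectors, the antiviral proteins made in response to the signal, were lower as a group. All 57 listed members were tested and all 57 had a negative difference, 39 of them called lower (68.4%, against 1.41% of all genes) and none called higher, with a median log2 difference of -0.96. Both double knock-down libraries lay below both siFOXA1 libraries for 54 of the 57, as they did for 21.7% of all genes. The summed level of the list was 16800 and 22400 CPM in siFOXA1 and 8650 and 12100 CPM in the double knock-down. Replicate 2 was the higher library within each group, yet the groups remained apart. The range ran from -1.69 for IFI6 to -0.18 for IFI16, which were looked up after their values were seen. The count of calls was 21 without double knock-down replicate 1 and 25 without siFOXA1 replicate 2, and 6 in limma on TPM.

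ISG15 (chr1:1013497-1014540), whose promoter is printed above, was at 1398 and 2305 CPM in siFOXA1 and at 672 and 810 CPM in the double knock-down, a log2 difference of -1.32 (SE 0.16, adjusted p = 3.01e-06). GBP1, an interferon-induced GTPase of host defence, was at 450.2 and 542 CPM against 228 and 269 CPM (-1.0, SE 0.14, adjusted p = 1.7e-05). IFIT2, which binds viral RNA, was at 508 and 873 CPM against 208 and 343 CPM (-1.33, SE 0.19, adjusted p = 2.5e-05). In each of these genes both siFOXA1 libraries were the higher ones, which the rule for naming the strongest calls required. SP110, a nuclear body protein, HELZ2, a helicase, and DDX60L, a helicase-like antiviral factor, fell by 1.34, 1.20 and 1.19 on the log2 scale. Calls of these 6 genes were kept in each of the 4 fits that left out 1 library.

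Further genes among the 15 strongest calls in the downward direction stood on no list. CTSS, which encodes the lysosomal protease cathepsin S, was at 102 and 116 CPM against 24.4 and 38.7 CPM (log2 difference -1.79, SE 0.24). TRIM38, a regulator of innate signalling, was at 108 and 141 CPM against 44.5 and 49.7 CPM. SLC15A3, a lysosomal transporter of bacterial peptides, was at 197 and 283 CPM against 58.6 and 117 CPM, and NT5C3A, a pyrimidine nucleotidase, at 249 and 420.3 CPM against 89.1 and 150.5 CPM. All 4 had non-overlapping groups, as the naming rule required, and folds between 2.64 and 3.45.

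**Figure D3:**
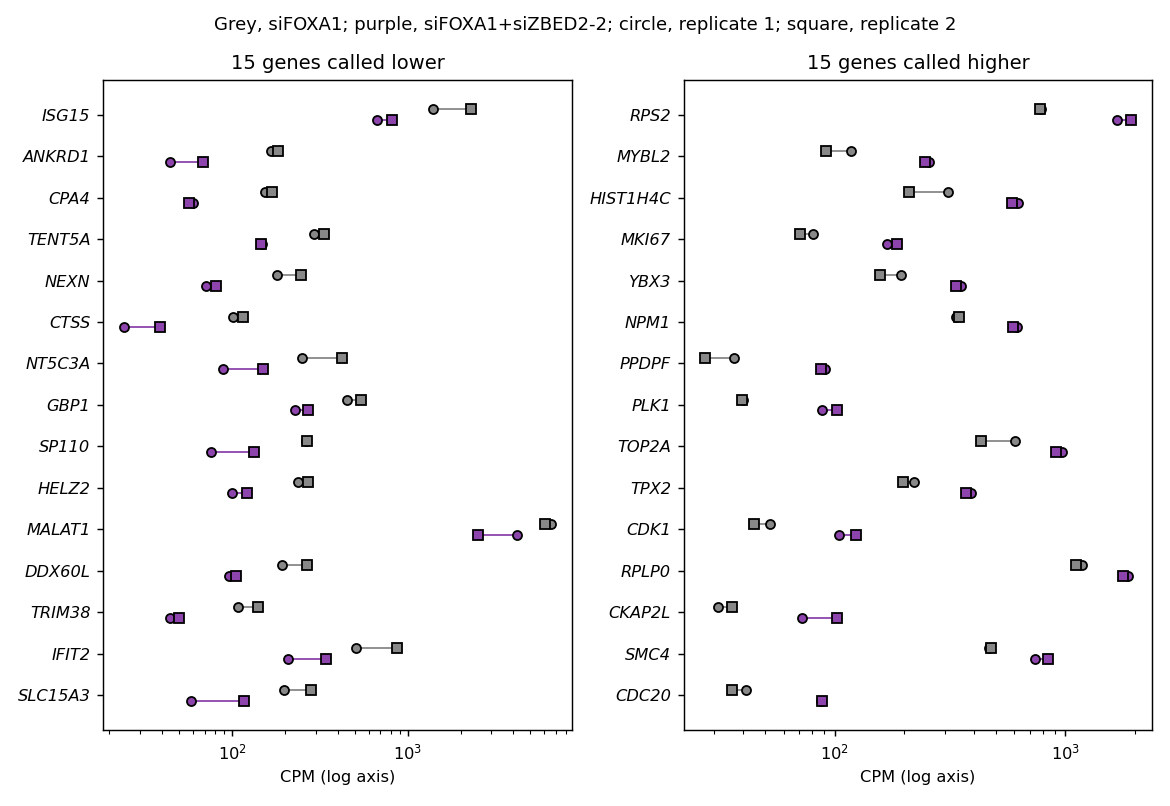
CPM on log axes in the 4 libraries for the 15 genes called lower (left) and the 15 called higher (right) with the smallest p, where grey stands for siFOXA1, purple for siFOXA1+siZBED2-2, circles for replicate 1 and squares for replicate 2. In no gene do the groups overlap, as the naming rule required, and in ISG15, NT5C3A, IFIT2 and SLC15A3 the replicate 2 library is the higher one in both groups.

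Cytosolic sensors of foreign nucleic acid moved in the same direction. Of 17 tested sensors and adaptors 5 fell (29.4%, against 1.41% of all genes) and none rose, with a median of -0.50. IFIH1, which encodes the RNA sensor MDA5, was at 220.4 and 296 CPM against 133 and 156 CPM (-0.84, SE 0.16, adjusted p = 0.0015). DDX58, which encodes RIG-I, EIF2AK2, the RNA-activated kinase PKR, and ADAR, the RNA editing enzyme, fell by 0.71, 0.74 and 0.50 (log2), each called in 2 of the 4 fits without 1 library, while IFIH1 was called in 3.

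Antigen presentation by MHC class I was lower in sign, with few calls (5.88% of the list called lower, against 1.41% of all genes). Each of the 17 tested members had a negative difference and the median was -0.35, but PSMB9, a subunit of the immunoproteasome, was the 1 member called, at 151 and 156 CPM against 93.0 and 89.5 CPM (-0.75, SE 0.17, adjusted p = 0.00512). B2M, the light chain of MHC class I, looked up after its value was seen, was at 91.0 and 178 CPM against 62.4 and 89.7 CPM (-0.82, adjusted p = 0.0634). The HLA genes share sequence with each other, and their counts are uncertain.

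Among 13 tested checkpoint and adhesion ligands 3 fell (23.1%, against 1.41% of all genes) and none rose. CD274 (chr9:5450542-5470554), which encodes the checkpoint ligand PD-L1, was not among them, with 118 and 144 counts in siFOXA1 and 87 in each double knock-down library (24.0 and 32.6 against 17.5 and 18.2 CPM). Its groups did not overlap, and its log2 difference was -0.66 (SE 0.42, adjusted p = 0.504). LGALS9, which encodes galectin-9, had 138 and 135 CPM against 25.96 and 52.3 CPM (-1.80, SE 0.30, adjusted p = 0.000233). TNFSF10, the death ligand TRAIL, and ICAM1, an adhesion molecule for leukocytes, fell by 0.88 and 0.97 on the log2 scale, ICAM1 being called in none of the 4 fits that left out 1 library and TNFSF10 in 2.

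Of 18 tested chemokines and cytokines 3 fell (16.7%, against 1.41% of all genes) and none rose. CXCL11 and CXCL10 attract T cells through CXCR3. CXCL11 was at 181 and 272 CPM against 86.5 and 135 CPM (-1.03, SE 0.20, adjusted p = 0.00109), and CXCL10 at 31.3 and 78.3 CPM against 9.05 and 25.5 CPM (-1.66, SE 0.44, adjusted p = 0.0253). Replicate 2 again gave the higher value in each group, and both were called in 2 of the 4 fits without 1 library. IL24, a cytokine of the IL-10 family, was at 87.1 and 48.0 CPM against 22.9 and 21.5 CPM. None of 20 tested NF-kB subunits and feedback regulators was called by edgeR, the member with the smallest p being TNFAIP3 (-0.33, adjusted p = 0.234). At an unadjusted p under 0.05 there was 1, and DESeq2 called none.

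Genes of the cell cycle moved the other way. Of 51 tested mitotic genes 50 had a positive difference, 33 were called higher (64.7%, against 2.25% of all genes), none was called lower, and the median was 0.88. The exception in sign was KIFC1, with 5 and 0 counts against 1 and 1. For 46 members both double knock-down libraries lay above both siFOXA1 libraries, as they did for 21.9% of all genes. Summed over the list, levels were 3660 and 3200 CPM in siFOXA1 and 5950 and 5990 CPM in the double knock-down. Without siFOXA1 replicate 2 the members called numbered 18. In bulk samples a change in the share of cells in a cell cycle phase and a change of RNA per cell cannot be told apart.

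MYBL2 was at 118 and 91.4 CPM in siFOXA1 and at 256 and 246 CPM in the double knock-down (1.26, SE 0.14, adjusted p = 1.65e-06). MKI67 was at 80.6 and 70.4 CPM against 169 and 187 CPM (1.24, SE 0.16, adjusted p = 8.36e-06). PLK1, the kinase that drives mitotic entry and spindle assembly, was at 40.1 and 39.6 CPM against 88.3 and 102 CPM (1.26, SE 0.17, adjusted p = 1.7e-05). In all 3 the siFOXA1 libraries were the lower ones, as the naming rule required. TOP2A, the topoisomerase that untangles chromosomes, TPX2, a spindle assembly factor, CDK1, the mitotic kinase, and CDC20, an activator of the anaphase-promoting complex, rose by 0.86, 0.87, 1.23 and 1.19 (log2). CKAP2L, a spindle protein, and SMC4, a condensin subunit, were not on the list and rose by 1.38 and 0.74. Every gene of this paragraph was called in each fit that left out 1 library.

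All 37 DNA replication genes tested had a positive difference, with a median of 0.69. Of them 15 were called higher (40.5%, against 2.25% of all genes). Both double knock-down libraries lay above both siFOXA1 libraries for 31, against 21.9% of all genes. RRM2 and RRM1 encode the subunits of ribonucleotide reductase, which makes deoxynucleotides. RRM2 was at 29.1 and 32.1 CPM against 68.8 and 71.9 CPM (1.20, SE 0.19, adjusted p = 0.000131), and RRM1 at 217 and 216 CPM against 386 and 322 CPM (0.71, SE 0.12, adjusted p = 0.000336). CLSPN, an adaptor of the replication checkpoint, and MCM7, a subunit of the replicative helicase, rose by 0.96 and 0.69. The members called numbered 8 without double knock-down replicate 2 and 7 without siFOXA1 replicate 2, and 9 when the 4 libraries were fitted alone.

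Regulators of entry into the cycle moved less uniformly. Of 28 tested G1 cyclins, CDK inhibitors and RB-E2F genes 2 rose and 1 fell, with a median of 0.43. The calls were 10.7% of the list, against 3.66% of all genes. TFDP1, the dimer partner of E2F factors, was at 18.5 and 15.4 CPM against 47.1 and 34.5 CPM (1.26, SE 0.22, adjusted p = 0.000283). CCND1, which encodes cyclin D1, was at 353 and 296 CPM against 475 and 464 CPM (0.53, adjusted p = 0.00609). CDKN1A, which encodes the CDK inhibitor p21, was at 229 and 237 CPM against 146 and 167 CPM (-0.58, adjusted p = 0.0188). TFDP1 was called in each fit that left out 1 library, CCND1 in 3 and CDKN1A in 2. Of 23 tested p53 targets, a list that does not hold CDKN1A, 1 was called (4.35%, near the 3.66% of all genes). It was BBC3, which encodes the apoptosis inducer PUMA, at 74.9 and 72.4 CPM against 32.6 and 32.8 CPM.

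**Figure D4:**
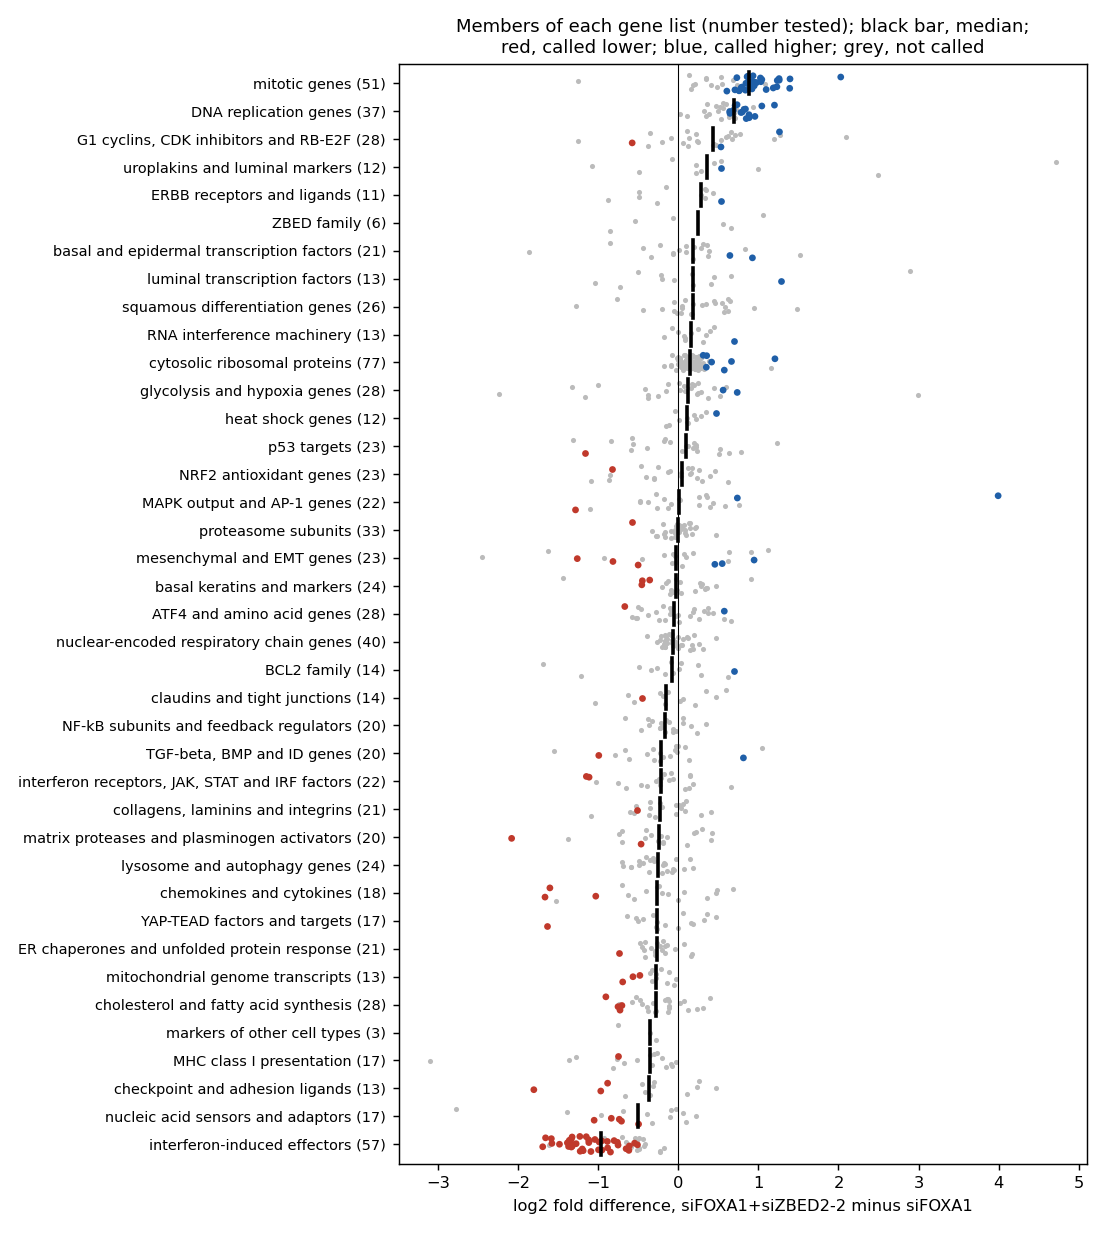
Log2 fold difference of siFOXA1+siZBED2-2 minus siFOXA1 (horizontal axis) for each tested member of 39 gene lists, ordered by median (black bars), with the number of members tested in parentheses and members called lower in red and higher in blue. Mitotic (median 0.88) and DNA replication genes (0.69) are at the top and interferon-induced effectors (-0.96) at the bottom.

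The promoter letters introduced above were counted in windows of 300 bases, 250 before and 50 from the start on, on both strands. No string searched holds another. GAAANNGAAA was found in 3.57% of the 35116 promoters of the table. Among genes with a promoter entry, it was present in 30 of 45 interferon-induced effectors (66.7%), in 34 of 136 genes called lower (25%) and in 3 of 233 called higher (1.29%), against 4.04% of the 9720 genes tested. IFIT2 had no entry.

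CCAAT, present in 34.6% of all promoters, was found in 36 of 43 mitotic genes (83.7%), in 61.8% of genes called higher and in 47.1% of those called lower, against 43.7% of genes tested. TTTGAA, present in 15.2% of all promoters, was found in 30 of 43 mitotic genes (69.8%), in 33.5% of genes called higher and in 8.09% of those called lower, against 13.7% of genes tested. The E2F strings TTTCCCGC and TTTGGCGC, present in 2.27% of all promoters, were found in 17 of 33 DNA replication genes (51.5%) and in 2 of 43 mitotic genes, in 11.1% of interferon-induced effectors, in 10.3% of genes called higher and in 5.15% of those called lower, against 4.63% of genes tested. A match is a description of the window and was not tested as a binding site, and the gene lists are known for these designs.

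The strongest call in the upward direction was RPS2, a protein of the small ribosomal subunit, at 785 and 775 CPM against 1673 and 1927 CPM (1.21, SE 0.11, adjusted p = 6.73e-09). Of 77 tested cytosolic ribosomal protein genes 68 had a positive difference and 7 were called higher (9.09%, against 2.25% of all genes). Their median was 0.15, so RPS2 lay far from most of the list. RPLP0, of the ribosomal stalk, was at 1182 and 1115 CPM against 1859.5 and 1780.0 CPM, and RPL10 and RPL7A rose by 0.57 and 0.42. These genes have many processed pseudogenes that share their reads, and the pseudogene RPS2P46, looked up afterwards, was called too (1.02), so their counts are uncertain. NPM1, a nucleolar chaperone of ribosome assembly, was at 336 and 346 CPM against 617 and 593 CPM (0.83, SE 0.11, adjusted p = 8.36e-06).

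HIST1H4C, a histone H4 gene, rose from 309.8 and 210.3 CPM to 621 and 584 CPM (1.21, SE 0.14, adjusted p = 3.01e-06). Most histone messages end without a poly(A) tail, so oligo-dT counts hold a part of them. YBX3, a cold-shock domain protein that binds RNA, was at 194 and 158 CPM against 354 and 337 CPM, and PPDPF at 36.6 and 27.4 CPM against 91.0 and 87.0 CPM. Both rose in the test and were called in each fit that left out 1 library.

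Another of the 15 strongest downward calls was ANKRD1, a cofactor that is a target of YAP and TEAD, at 168 and 183 CPM against 44.5 and 68.6 CPM (-1.63, SE 0.20, adjusted p = 4.49e-06). It was the 1 gene called among 17 YAP-TEAD factors and targets (5.88%, against 3.66% of all genes), whose median was -0.26. NEXN, an actin-binding protein, was at 179.7 and 245 CPM against 71.2 and 80.9 CPM, CPA4, a secreted carboxypeptidase, at 154 and 168 CPM against 59.8 and 57.1 CPM, and TENT5A, a poly(A) polymerase of the TENT5 family, at 293 and 332 CPM against 147 and 146 CPM. MALAT1, a nuclear long noncoding RNA, fell from 6522 and 6032 CPM to 4194 and 2529 CPM (-0.90, SE 0.13, adjusted p = 2.08e-05).

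Genes of urothelial identity showed few calls, though mostly at a share above the 3.66% of all genes tested. Calls made up 12.5% of basal keratins and markers and 9.52% of basal and epidermal transcription factors. For luminal transcription factors the share was 7.69%, and for uroplakins and luminal markers 8.33%. Of 24 tested basal keratins and markers 11 were higher and 13 lower in sign, 3 were called lower and none higher, and the median was -0.03. KRT5 lay higher, at 592 and 607 CPM against 752 and 724 CPM, as did KRT6A, at 1017 and 878 CPM against 1192 and 1087 CPM. KRT17, a keratin of basal cells, was at 2459 and 2303 CPM against 1826 and 1647 CPM (-0.46, SE 0.10, adjusted p = 0.00532), and LAMB3, a laminin chain of the basement membrane, fell by 0.45. Of 21 tested basal and epidermal transcription factors HMGA2, an architectural chromatin protein, and ELK3 rose, by 0.64 and 0.93. None of 26 squamous differentiation genes was called, the smallest p being that of PPL (0.59, adjusted p = 0.214). DESeq2 called none either, and 4 had an unadjusted p under 0.05. Of 13 luminal transcription factors FOXQ1 rose (1.29, adjusted p = 0.039, called in none of the 4 fits without 1 library), and of 12 uroplakins and luminal markers KRT18, a keratin of simple epithelia, rose from 482 and 416 CPM to 634 and 666 CPM (0.53, SE 0.11, adjusted p = 0.00249). ELK3 was called in 1 of those 4 fits.

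Calls among matrix proteases, integrins and tight junction genes were few, and each was downward. They made up 10% of the proteases, 4.76% of collagens, laminins and integrins and 7.14% of tight junction genes, against 3.66% of all genes. MMP13, a collagenase, was at 50.9 and 118 CPM against 16.5 and 23.4 CPM (-2.08, SE 0.32, adjusted p = 7.78e-05), and ADAM8, a membrane protease, fell by 0.46, out of 20 tested proteases and plasminogen activators. Of 23 mesenchymal and EMT genes 3 rose and 3 fell, so 26.1% were called, against 3.66% of all genes. CALD1, an actin-binding protein, fell by 0.50. MYL9, a myosin light chain, and CAV1, the coat protein of caveolae, rose by 0.95 and 0.46. ITGA3 (-0.51) was the 1 call among 21 collagens, laminins and integrins, and F11R (-0.46) among 14 claudins and tight junction genes, called in none and in 1 of the fits without 1 library.

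In growth factor signalling, INHBA, the beta A chain of activin, fell from 435 and 390.2 CPM to 205 and 209 CPM (-0.99, SE 0.14, adjusted p = 3.6e-05), and ID1, a BMP-induced inhibitor of differentiation, rose by 0.81, the 2 calls among 20 TGF-beta, BMP and ID genes. AREG, a ligand of the EGF receptor, was at 209 and 253 CPM against 289 and 378 CPM, the 1 call among 11 ERBB receptors and ligands. Of 22 MAPK output and AP-1 genes PHLDA1 rose (0.74), ATF3, a stress-induced transcription factor, fell (-1.28), and SPRY1, a feedback inhibitor of receptor tyrosine kinases, rose from 3 counts over both siFOXA1 libraries to 54 over both double knock-down libraries. The SPRY1 ratio scaled to library size was 17.2, with an exact 95% interval of 5.59 to 86.2 that covers counting error alone, and its call was kept in 1 of the 4 fits without 1 library. Calls made up 10% of TGF-beta, BMP and ID genes and 9.09% of ERBB receptors and ligands. For MAPK output and AP-1 genes the share was 13.6%, against 3.66% of all genes.

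Calls among sterol synthesis genes were in the downward direction. Of 28 tested cholesterol and fatty acid synthesis genes 4 fell (14.3%, against 1.41% of all genes) and none rose, with a median of -0.28. FDPS, which makes farnesyl diphosphate, was at 547 and 575 CPM against 342 and 324 CPM (-0.75, SE 0.12, adjusted p = 0.000187), and HMGCS1, the enzyme before HMG-CoA reductase, at 612 and 699.8 CPM against 419 and 386 CPM (-0.70, SE 0.13, adjusted p = 0.000802). EBP and STARD4 fell by 0.73 and 0.90, each called in 1 of the 4 fits without 1 library. In glycolysis GPI and LDHA rose by 0.74 and 0.56, the 2 calls among 28 genes. SQSTM1, the autophagy receptor p62, fell from 948 and 784 CPM to 473 and 505 CPM (-0.82, SE 0.13, adjusted p = 0.00014), as the 1 call among 23 NRF2 antioxidant genes. Calls made up 7.14% of the 28 glycolysis and hypoxia genes and 4.35% of the 23 NRF2 genes, against 3.66% of all genes.

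Transcripts of the mitochondrial genome had negative differences in all 13 cases, with 3 called lower (23.1%, against 1.41% of all genes). MT-CO1, MT-ND1 and MT-ND2 fell by 0.69, 0.57 and 0.48 on the log2 scale. MT-CO1 was not called in DESeq2 (adjusted p = 0.0708), and none of the 3 was called in limma on TPM. The list median was -0.19 within replicate 1 and -0.48 within replicate 2. The mitochondrial share of all counts was 12.9% and 12.5% in siFOXA1 and 11.5% and 9.29% in the double knock-down, the last value standing apart. None of 40 nuclear-encoded respiratory chain genes was called by edgeR, 4 had an unadjusted p under 0.05 and DESeq2 called 1.

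Stress and housekeeping lists held at most 2 calls each. Over all genes tested 3.66% were called, against 7.14% of ATF4 and amino acid genes, 4.76% of ER chaperone genes and 3.03% of proteasome genes. For heat shock genes the share was 8.33%, for the BCL2 family 7.14% and for the RNA interference machinery 7.69%. Of 28 ATF4 and amino acid genes WARS, an interferon-inducible tRNA synthetase, fell by 0.67 and SHMT2 rose by 0.57. DNAJC3, an inhibitor of the kinases PKR and PERK, fell by 0.75 among 21 ER chaperone genes, and PSME4 fell by 0.58 among 33 proteasome genes. HSPD1 rose by 0.47 among 12 heat shock genes and BCL2L12 by 0.70 among 14 genes of the BCL2 family. AGO2, the slicer of RNA interference, rose from 81.0 and 60.4 CPM to 112 and 117 CPM (0.70, adjusted p = 0.0136), the 1 call among 13 genes of that machinery. Of 24 lysosome and autophagy genes none was called by edgeR without a block, 6 had an unadjusted p under 0.05, DESeq2 called 2, and edgeR with the replicate block called 3, all lower. GABARAPL2 of that list had an adjusted p of 0.0547, and 0.0165 with the block. None of 6 ZBED family genes and 3 tested markers of other cell types was called by edgeR or DESeq2, each list holding 1 gene with an unadjusted p under 0.05, and the smallest adjusted p belonged to ZBED4 (0.318) and LUM (0.321). SHMT2 and PSME4 were called in none of the 4 fits without 1 library.

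Both replicate numbers gave the same picture when read apart. Within replicate 1 the median difference was -1.0 for interferon-induced effectors, 0.68 for mitotic genes and 0.62 for DNA replication genes, and within replicate 2 it was -0.92, 1.02 and 0.70, against -0.01 and 0.01 for all genes tested. All 480 called genes had the same sign in both, which is no separate support. For 479 of them the groups lay apart, so both differences had to share a sign.

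**Figure D5:**
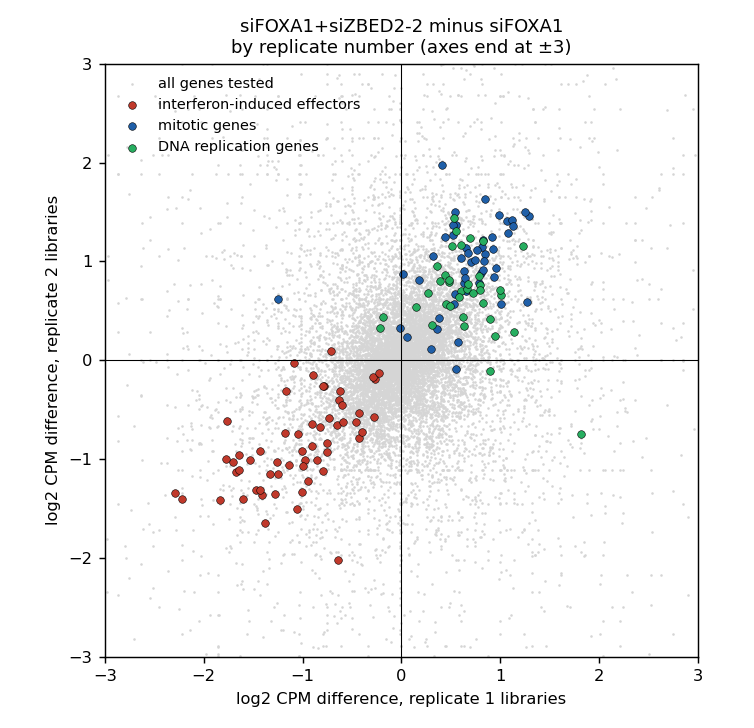
Log2 CPM difference of siFOXA1+siZBED2-2 minus siFOXA1 between the replicate 1 libraries (horizontal axis) and between the replicate 2 libraries (vertical axis), for all genes tested (grey) and 3 gene lists (colour). Interferon-induced effectors gather at the lower left (medians -1.0 and -0.92) and mitotic genes at the upper right (0.68 and 1.02), with few members elsewhere.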

How the data were processed

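Gene expression was profiled by 3′ RNA-seq (Lexogen) in 2 SCaBER libraries per group. Per the file headers, the authors used TrimGalore 0.6.2 to trim (quality at least 20, length at least 10) and STAR 2.6.1a to align to hg38, and deposited raw counts per gene of GENCODE release 29. STAR counts took the strand setting that the pipeline found by itself. The study's methods name another build, and the deposited pipeline settings were followed here. The authors also deposited TPM values, whose length scaling does not suit 3′ reads, and these served 1 alternative. No molecular identifiers were stated, so floors and intervals cover counting error alone. Of 58721 genes in the table, 40087 were at 0 in the 4 libraries.

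Counts of the 12 SCaBER libraries (totals 4519668 to 6119210) were fitted with 1 mean per group in edgeR 4.0.16 (R 4.3.3; TMM scaling; filterByExpr with a minimum count of 10 and a minimum total of 15), and the contrast was tested by the quasi-likelihood test with Benjamini-Hochberg adjustment over 13129 genes. Folds are fitted folds, and SE was derived from the test statistic. The biological coefficient of variation was 21.6%. With 2 libraries against 2 no permutation test of single values can reach 0.05, and tests rest on the spread shared over groups. Replicates differed beyond sampling noise (chi-square per gene 8.99 and 7.62). Replicate numbers are given as experiment batches in the labels, which pairs the samples. Beyond the labels nothing states whether cultures were separate. Over all genes tested, deviations of libraries with equal numbers correlated at 0.037, while for interferon-induced effectors replicate 2 was the higher library in both groups. The main fit held no term for the pairing, and the replicate block was an alternative.

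Gene lists and the comparison were chosen with earlier results of these data known. Named genes were ZBED2, FOXA1, STAT2, IRF9 and CD274, the 15 called genes per direction with the smallest p and non-overlapping groups, and up to 4 called members per list (otherwise the member with the smallest p). A few genes that met the rule are not reported here. Alternatives were RLE scaling, library totals, no filter, the replicate block, the 4 libraries alone, DESeq2 1.42.0, limma 3.58.1 on log2(TPM + 1), and leaving out each library. The edgeR fit was tested on simulated data. Coordinates (1-based) and promoters are from RefSeq, GRCh38.p14. The siRNA sequences and the total siRNA amount per well in the double knock-down are not given in the sources used here.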

Additional observations from a re-analysis of the deposited data

How the results depend on the processing

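The 91 named genes with a call kept their sign in all 4 fits that left out 1 library, 46 of them with the call in all 4 and 6 with it in none (among them ICAM1, FOXQ1, ITGA3, SHMT2 and PSME4). The call held in 1 of the 4 for ELK3, CALD1, F11R, SPRY1, BCL2L12, EBP and STARD4, in 2 for 18 genes (DDX58, EIF2AK2, ADAR, TNFSF10, CXCL11, CXCL10, CDKN1A, LAMB3, AREG, ATF3, ADAM8, WARS, DNAJC3, LDHA, RPL7A, MT-ND1, HSPD1 and AGO2) and in 3 for the other 14. Groups of the 91 genes did not overlap, so leaving out 1 library could hardly turn a sign, and their kept signs are no separate support. The list medians of interferon-induced effectors, mitotic genes and DNA replication genes kept their sign in every alternative. Those of 11 of the 39 lists, between -0.15 and 0.24 as reported, changed sign in at least 1 (basal keratins, for example, ranged from -0.12 to 0.11). Leaving out 1 library gave 219 to 599 genes called (124 to 356 higher, 95 to 243 lower), 21 to 44 interferon-induced effectors called lower, 18 to 34 mitotic genes and 7 to 13 DNA replication genes called higher. The lowest values came without siFOXA1 replicate 2, except for the effectors, where they came without double knock-down replicate 1. In limma on TPM 204 genes were called (171 higher, 33 lower), with 6 interferon-induced effectors, 8 DNA replication genes, and STAT2 at -1.02 with an adjusted p of 0.0506. The 4 libraries fitted alone gave 267 calls, 129 of them higher (48.3%), and 9 DNA replication genes. With the replicate block the calls numbered 677, those lower 283, and no named call was lost. None was lost with RLE scaling or without the filter either. Of the 91 named calls, however, 47 were lost in limma on TPM, 22 with the 4 libraries alone, 6 with library totals and 4 in DESeq2. Those lost in limma included IFIT2, LGALS9, CXCL11, MMP13, SQSTM1 and HMGCS1. Those lost in DESeq2 were ICAM1, SPRY1, STARD4 and MT-CO1. DESeq2 called 561 genes, sharing 448 with edgeR, and gave ZBED2, CD274 and IRF9 no adjusted p. RLE scaling gave 487 calls, library totals 510 and no filter on low counts 556. ZBED2, CD274, IRF9 and FOXA1 had at most 144 counts per library, and what part depth and spread have in their missing calls was not tested.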

Other observations

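Factors of the nucleolus and of ribosome assembly, a list put together after NPM1 was seen among the strongest calls, were higher in sign in the double knock-down. Of 56 listed genes 55 were tested, 47 had a positive difference, 11 were called higher and none lower, with a median log2 difference of 0.30. Over all genes tested, 2.25% were called higher. TCOF1, which helps RNA polymerase I transcription, was at 44.2 and 29.9 CPM in siFOXA1 and at 82.3 and 84.0 CPM in siFOXA1+siZBED2-2 (1.16, SE 0.18, adjusted p = 8.66e-05). BOP1, a factor of large subunit maturation, was at 39.3 and 24.9 CPM against 82.1 and 68.8 CPM, and FBL, the fibrillarin that methylates ribosomal RNA, at 157 and 101 CPM against 242 and 255 CPM. SNHG genes, which host small nucleolar RNAs in their introns, went the same way, with 5 of 20 tested called higher, none lower and a median of 0.37. SNHG25 was at 152 and 103 CPM against 275 and 269 CPM (1.09, SE 0.17, adjusted p = 0.000107).

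Among 16 tested ribosomal and transfer RNA genes of the mitochondrial genome 4 were called lower and none higher, where 1.41% of all genes were called lower. MT-TF, the gene of the phenylalanine transfer RNA, was at 575 and 308 CPM against 205 and 149.9 CPM, and MT-RNR2, that of the large ribosomal RNA, at 53879 and 54258 CPM against 46646 and 37362 CPM (-0.36, SE 0.08, adjusted p = 0.00755). DESeq2 called MT-TF, MT-RNR2 and MT-TL1 of the 4, but not MT-RNR1 (adjusted p = 0.326). Oligo-dT priming reads polyadenylated transcripts, and whether these counts follow the mature transfer and ribosomal RNAs was not tested. Of 26 tested histone genes 3 were called higher and 1 lower, with a median of 0.01. HIST1H2AC, the histone gene that fell, was at 26.9 and 40.5 CPM against 10.9 and 11.5 CPM. For 4 genes called higher both siFOXA1 libraries, and for 1 called lower both double knock-down libraries, held at most 3 counts, so that their fitted folds are no measure of size. These groups were chosen after values were seen, and their counts are descriptions.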
